A study of Rattus norvegicus with 99 samples.

Results

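The iroquois factors Irx2, Irx3, Irx4 and Irx5, the T-box factors Tbx5 and Tbx20, the bHLH factors Hand1 and Hand2 and the TALE factors Meis1 and Meis2 are transcription factors known for setting up the chambers of the developing heart. Their rows were taken by gene symbol from the count table of the rat hearts, which gave all 10 genes of the 17337 in the table, and 9 of the 10 passed the filter on low counts. Hand1 did not: 28 of 99 libraries held any Hand1 read and the highest count was 3, so it is reported only as barely detected. The rule takes them by name and uses no measured value, though the group was proposed with earlier results of these data known.

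RNA-seq of poly(A) RNA was performed on the left ventricle (LV), septum (Spt) and right ventricle (RV) of 33 male rats of an F1 cross (Wistar Kyoto mother, Lewis father), which gave 99 libraries in 21 groups of condition and chamber. A clip that did not constrict at surgery was placed on the pulmonary artery (PAB, pulmonary artery banding, which loads the RV) or on the aorta (AOB, aortic banding, which loads the LV), and sham animals served as controls. The compensated groups Sham-H, PAB-H and AOB-H held 7 animals each, aged 11 weeks and taken 7 weeks after surgery. The groups in heart failure and their shams were Sham-RF with 2 and PAB-F with 3 animals aged 27 weeks, 21 weeks after surgery, and Sham-LF with 3 and AOB-F with 4 animals aged 30 weeks, 24 weeks after surgery. The ages are those given for each sample, and the protocol text of the labels names another age. Total counts were 12.1 to 24.2 M per library. Whole tissue was sequenced, so fewer cells of a type and less RNA per cell cannot be told apart.

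In the embryo these factors act in overlapping domains. Irx4 is restricted to ventricular muscle, where it is known for holding down atrial genes. Irx3 and Irx5 shape the ventricular conduction system and the gradient of repolarising potassium current across the wall, and Irx1 and Irx2 are known from the ventricular septum. Tbx5 and Tbx20 act with Gata and Nkx factors, Hand1 is known from the left and Hand2 from the right side of the early ventricle, and Meis proteins bind DNA together with Pbx partners. The comparisons below show how far such chamber differences were present in the adult rat heart and whether they moved under pressure load.

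The ventricle labels were checked before any comparison, with, for each animal, the 50 genes outside the group of 10 that separated RV from LV best in the remaining animals. In 3 animals, AOB-H replicate 1, PAB-H replicate 2 and Sham-H replicate 6, these genes ran opposite to the labels, with a mean RV to LV difference of -1.27, -1.01 and -0.97 times the median of the remaining animals (weighted by gene), against 0.34 to 1.52 in the other 30. LV and RV of these 3 animals and of PAB-H replicate 6, whose ventricle labels were also named as uncertain although its value was 0.72, were left out, which kept 29 LV, 33 Spt and 29 RV libraries of the 99. Leaving libraries out by an RV to LV contrast is not independent of the RV to LV comparison, so values with all 99 libraries are given beside it. Among the libraries left out, the LV libraries of the 3 animals held 0.791, 1.56 and 0.814 CPM of Irx2 (CPM, the count scaled to the same library size in every library, by TMM) and the RV libraries 7.45, 7.41 and 9.23. PAB-H replicate 6 held 5.16 CPM of Irx2 in LV and 0.847 in RV.

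Irx4, Irx2 and Irx1 are consecutive protein-coding genes on chromosome 1 in the RefSeq annotation, in that order, and Irx5 and Irx3 are neighbours on chromosome 19. The 250 bases upstream of the starts of the chromosome 1 genes are shown because Irx1 and Irx2 turned out to share a chamber pattern that their neighbour Irx4 did not have. Sequences are from RefSeq, build GRCr8, and are given 5′ to 3′ on the strand of the gene. Irx4 lies at chr1:31868090-31868339 on the minus strand, Irx2 at chr1:32494931-32495180 on the minus strand and Irx1 at chr1:33122872-33123121 on the plus strand. Capitals mark matches to the T-box motif GGTGTGA and the CAAT box CCAAT, both searched on both strands.
Irx4: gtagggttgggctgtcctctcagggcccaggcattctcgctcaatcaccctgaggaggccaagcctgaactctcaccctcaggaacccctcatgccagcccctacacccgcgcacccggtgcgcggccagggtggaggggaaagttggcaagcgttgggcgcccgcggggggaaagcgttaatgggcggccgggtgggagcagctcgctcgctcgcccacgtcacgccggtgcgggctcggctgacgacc
Irx2: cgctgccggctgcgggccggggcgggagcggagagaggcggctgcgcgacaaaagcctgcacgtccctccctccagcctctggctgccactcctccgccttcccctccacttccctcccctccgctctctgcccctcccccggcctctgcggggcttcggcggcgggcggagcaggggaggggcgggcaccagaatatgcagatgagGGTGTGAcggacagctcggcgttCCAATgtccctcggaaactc
Irx1: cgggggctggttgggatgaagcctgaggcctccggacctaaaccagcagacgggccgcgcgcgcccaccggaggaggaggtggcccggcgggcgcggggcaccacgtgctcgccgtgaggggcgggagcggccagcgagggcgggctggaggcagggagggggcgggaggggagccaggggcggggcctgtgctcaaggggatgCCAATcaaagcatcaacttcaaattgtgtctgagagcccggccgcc

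All 3 windows were rich in G and C, at 69.2% for Irx4, 71.6% for Irx2 and 72.8% for Irx1 against a median of 51.2% over 33469 RefSeq windows of the same length. They held 22, 23 and 23 CpG dinucleotides against a median of 5. The T-box motif began 43 bases before the Irx2 start and was present in 3.22% of all windows, and CCAAT, present in 34% of all windows, began 20 bases before the Irx2 start and 46 bases before the Irx1 start. The MEIS site TGACAG, the GATA site AGATAA and the TATA box TATAAA had no match in these 3 windows on either strand and were present in 15.8%, 10.3% and 12.9% of all windows. Upstream windows were found for 8 of the 10 genes, Irx5 and Meis2 having none in the table used. These matches describe the letters only and say nothing of binding.

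Per transcript length, the levels of the 10 genes in the 91 libraries spread from Hand2 at the top to Hand1 at 0. Median FPKM (reads scaled by transcript length and library size, the authors' values) was 41.0 for Hand2, 12.1 for Meis2, 12.0 for Irx3, 9.89 for Irx4, 8.34 for Irx5, 6.66 for Meis1, 5.53 for Tbx5, 3.81 for Tbx20, 2.14 for Irx2 and 0 for Hand1. The lowest Hand2 library, at 29.3 FPKM, lay above the highest library of every other gene of the group, the next being 22.7 FPKM for Irx4. From Meis2 down to Irx2 the ranges of neighbours in this order overlapped. Hand2 was first and Hand1 last in every chamber, while the ranks between moved: Irx2 exceeded Tbx20 in median FPKM in Spt, at 4.86 against 3.92, and was far below it in RV, at 0.482 against 3.17.

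**Figure D1:**
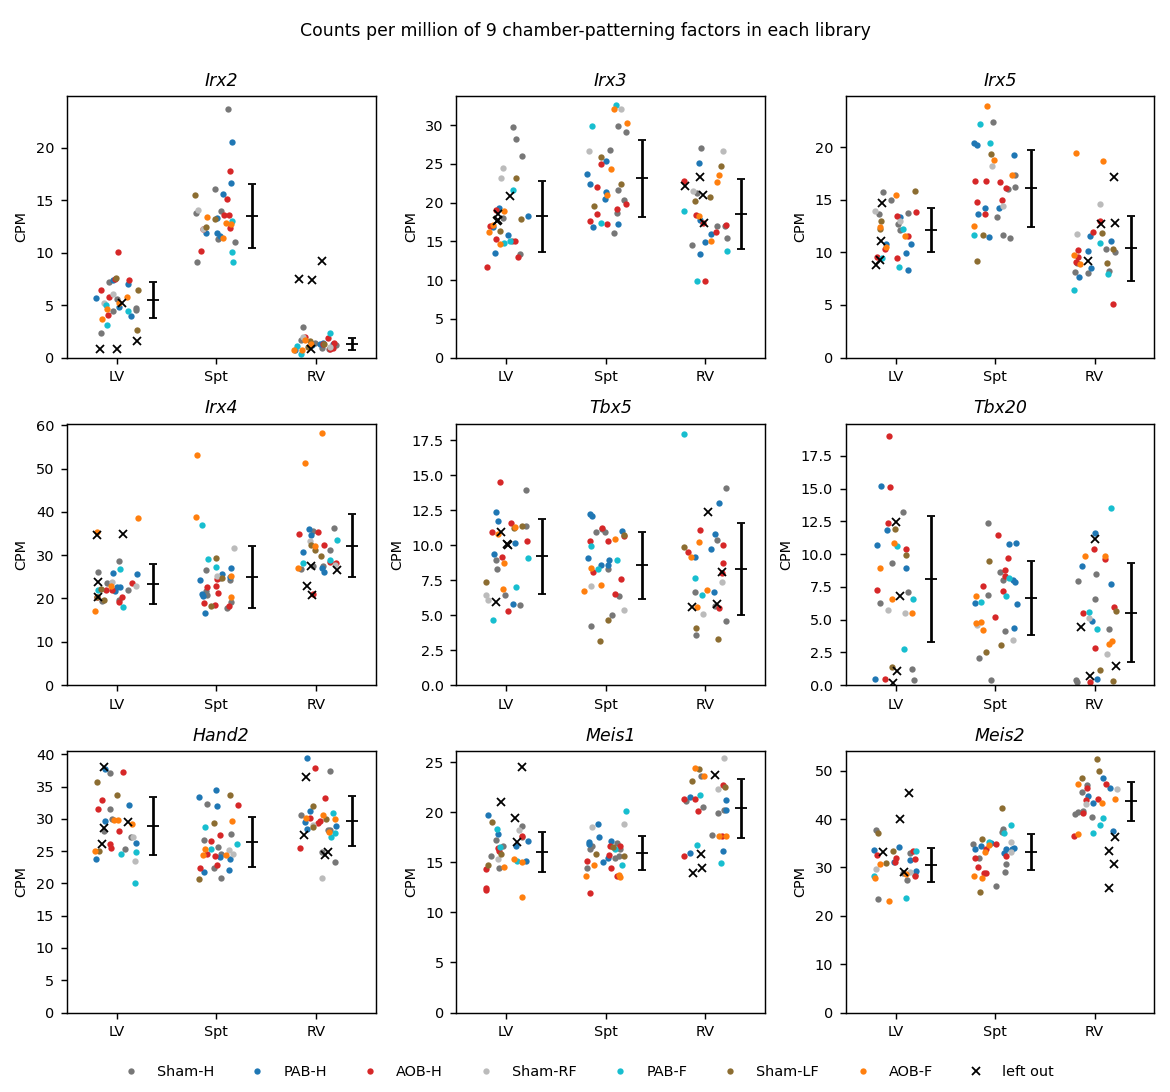
CPM (y axis) of 9 factors in each library of LV, Spt and RV (x axis), coloured by condition; crosses are the libraries left out, and the bars at the side give mean and SD of the libraries used. Irx2 had a median of 13.0 in Spt, 5.24 in LV and 1.27 in RV, while Irx4, Meis1 and Meis2 were highest in RV.

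RV and LV were compared first, averaged over the 7 conditions so that each condition counted equally. Irx2 was lower in RV by 4.07-fold, and Meis2, Irx4 and Meis1 were higher in RV, Meis2 by 1.45-fold and Irx4 by 1.39-fold. By edgeR's quasi-likelihood test with Benjamini-Hochberg adjustment over 11905 genes, 4 of the 9 factors tested were called at an adjusted p under 0.05, 3 higher and 1 lower in RV, and 36.9% of all genes were called in this comparison, 19.1% higher and 17.8% lower. A share of 4 in 9 is near this background, so the count alone does not set the factors apart. The median log2 fold change of the 9 was 0.03, against -0.00 over all genes tested.

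Irx2 had the smallest p of all 11905 genes in this comparison. Its 29 LV libraries held 2.34 to 10.0 CPM (median 5.24) and its 29 RV libraries 0.325 to 2.93 CPM (median 1.27), so that the libraries of the ventricles overlapped only between 2.34 and 2.93 CPM. Within animals RV was lower than LV in 29 of 29, with a median difference of -2.04 on the log2 scale (CPM + 0.1, range -2.92 to -0.90). The fitted log2 fold change was -2.03 ± 0.14 (SE), adjusted p = 9.92e-20. It was -1.94 ± 0.29, -2.12 ± 0.18 and -1.97 ± 0.15 within the 3 series of library numbers in the labels, and -1.62 ± 0.23 (edgeR adjusted p = 2.40e-07) with all 99 libraries.

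Meis2, a TALE homeobox factor of the outflow tract and neural crest, had 23.0 to 37.7 CPM in LV (median 30.9) and 36.6 to 52.5 CPM in RV (median 43.9). Only the upper end of the LV range reached into the RV range, and RV was higher in 29 of 29 animals. Of the animals left out, AOB-H replicate 1, PAB-H replicate 2 and Sham-H replicate 6 had less Meis2 in RV (log2 differences of -0.64, -0.44 and -0.10). In PAB-H replicate 6 Meis2 was higher in RV (0.32). Its log2 fold change was 0.53 ± 0.04 with an edgeR adjusted p of 6.71e-17, and 0.48 ± 0.05 with all 99 libraries. Meis1, its paralog with a known part in the cell cycle exit of newborn heart muscle, had 11.6 to 19.7 CPM in LV (median 16.1) and 14.9 to 25.4 in RV (median 21.1), higher in 24 of 29 animals. Its log2 fold change was 0.36 ± 0.05 (edgeR adjusted p = 8.33e-09), 0.31 ± 0.05 with all 99 libraries (adjusted p = 1.07e-05), and 0.37 ± 0.11 within series 1 of the library numbers, where it was not called (adjusted p = 0.109). The ranges of Meis1 in LV and RV overlapped widely.

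Irx4 had 17.2 to 38.6 CPM in LV (median 22.2) and 21.1 to 58.2 in RV (median 31.2). The ranges overlapped, yet RV exceeded LV in 29 of 29 animals, by 0.06 to 0.73 on the log2 scale. Of the animals left out, AOB-H replicate 1, PAB-H replicate 2 and Sham-H replicate 6 had less Irx4 in RV (-0.38, -0.34 and -0.18). PAB-H replicate 6 had more (0.18). The count of 29 thus depends in part on the animals left out. The log2 fold change was 0.47 ± 0.08 (edgeR adjusted p = 2.14e-06), and 0.41 ± 0.08 with all 99 libraries.

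**Figure D2:**
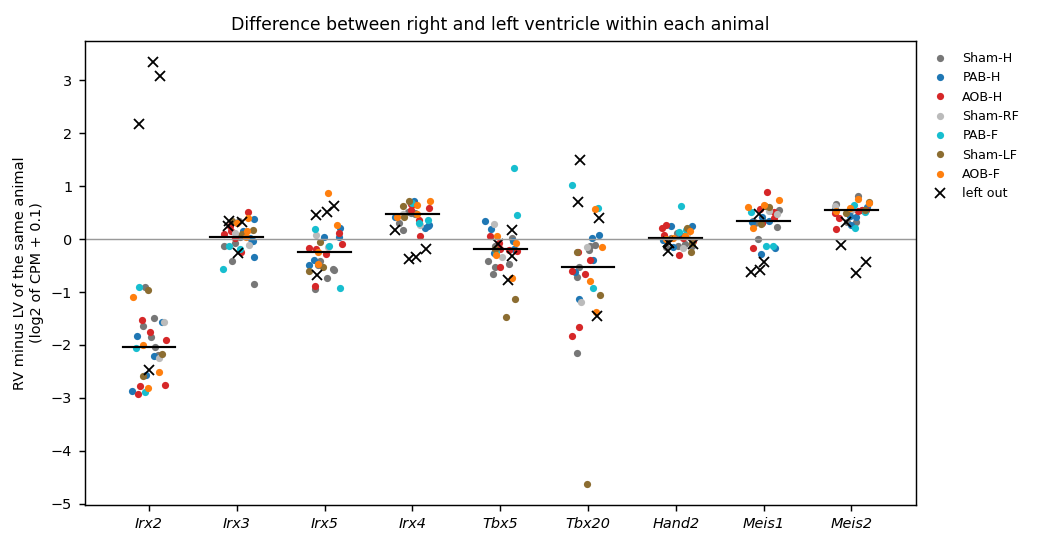
RV minus LV of the same animal on the log2 scale of CPM + 0.1 (y axis) for 9 factors (x axis); points are animals coloured by condition, lines are medians of the 29 animals used, and crosses are the 4 animals left out. Irx2 lies below 0 and Irx4 and Meis2 lie above 0 in all 29 animals, while 3 of the 4 crosses lie on the other side of 0 for Irx2.

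The other 5 factors were not called between RV and LV. Irx5 was lower in RV in 21 of 29 animals, with 8.34 to 15.8 CPM in LV and 5.11 to 19.5 in RV, and a log2 fold change of -0.20 ± 0.09 that just missed the threshold (edgeR adjusted p = 0.0564). It passed in the fit with the animal as a block (-0.21 ± 0.08, adjusted p = 0.0383), with the series of library numbers as a covariate (0.0445) and without AOB-F replicate 4 (0.0206), and did not with all 99 libraries (0.163). In most fits Irx5 was not called: it passed in 4 of 12 alternative fits and in 6 of 33 that left out 1 animal. Tbx20, required for heart muscle identity, was lower in RV in 24 of 29 animals at -0.57 ± 0.30 (edgeR adjusted p = 0.125), and -0.59 ± 0.20 with the series as a covariate, where it passed (adjusted p = 0.0129). Irx3 (0.03 ± 0.09), Tbx5 (-0.13 ± 0.13) and Hand2 (0.05 ± 0.06) had edgeR adjusted p of 0.805, 0.458 and 0.501. With all 99 libraries Tbx20 stood at -0.56 ± 0.32, Irx3 at 0.04 ± 0.08, Tbx5 at -0.14 ± 0.13 and Hand2 at 0.04 ± 0.06, none called (edgeR adjusted p = 0.176, 0.738, 0.439 and 0.643). Hand2, known from the right side of the embryonic ventricle, had 20.0 to 37.7 CPM in LV and 20.8 to 39.5 in RV and was higher in RV in 18 of 29 animals.

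The RV to LV differences were next taken within each condition. Irx2 was lower and Irx4, Meis1 and Meis2 were higher in RV in all 7 conditions in the fitted values. The log2 fold change of Irx2 lay between -2.32 in AOB-H and -1.68 in Sham-H, and it was called in 5 conditions, missing in Sham-RF (edgeR adjusted p = 0.0710, 2 animals) and PAB-F (0.129, 3 animals). With the animal as a block it passed in both, at 0.0250 and 0.0387. Meis2, between 0.44 and 0.64, was called in the same 5 conditions, and in Sham-RF as well with the block (adjusted p = 0.0147). Meis1 was called in AOB-H, Sham-LF and AOB-F, at 0.42, 0.51 and 0.56. Irx4, between 0.39 and 0.61, was called in none of the 7 conditions, and with the block in AOB-H, Sham-LF and AOB-F (adjusted p = 0.0171, 0.0453 and 0.0247).

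The calls per condition depended on few libraries. In PAB-H only 0.0588% of all genes were called, and Irx2 and Meis2 were 2 of these 7 genes. The background was 1.34% in Sham-H, 3.75% in AOB-H, 0.109% in Sham-RF, 0.00840% in PAB-F, 2.38% in Sham-LF and 2.44% in AOB-F. With all 99 libraries kept, Irx2 in Sham-H stood at -0.67 (adjusted p = 0.855) and no factor was called in Sham-H, PAB-H, AOB-H or Sham-LF. Without Sham-LF replicate 2 no factor was called in Sham-LF, and without its replicate 1 only Meis2 was. Meis2 in PAB-H lost its call when replicate 1, 3, 4 or 7 was left out alone (adjusted p = 0.0535 to 0.231), as did Meis1 in AOB-H without replicate 4 (0.117) and in AOB-F without replicate 2 or 3 (0.0569 and 0.0748).

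In sham animals the level of Irx2 already differed between chambers. Sham-H animals had 2.34 to 7.21 CPM in LV (median 4.62), 9.06 to 23.7 in Spt (median 13.8) and 0.769 to 2.93 in RV (median 1.29). The 2 Sham-RF animals had 6.04 and 5.18 CPM in LV, 12.2 and 14.1 in Spt and 1.99 and 1.02 in RV. The 3 Sham-LF animals had 7.56, 6.44 and 2.65 CPM in LV, 13.2, 12.4 and 15.5 in Spt and 1.60, 0.986 and 1.31 in RV. In each of these sham groups no Spt library was as low as the highest LV library. The share of all genes with such a separation was not determined for these groups. Without that share the separation alone does not set Irx2 apart in any of these groups, and least of all with 2 or 3 animals.

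The septum was the chamber with the most Irx2, and Irx3 and Irx5 were also higher there. Against LV, 4 of the 9 factors were called, all higher in Spt, with 9.90% of all genes called, 4.10% higher and 5.80% lower. Irx2 was higher in Spt by 1.30 ± 0.12 log2 units (edgeR adjusted p = 1.22e-13), again with the smallest p of all genes, and in 29 of 29 animals. Irx5 was higher by 0.41 ± 0.09 and Irx3 by 0.39 ± 0.09 (edgeR adjusted p = 0.000404 and 0.00107), each in 25 of 29 animals. Both had wide ranges, Irx3 with 11.7 to 29.7 CPM in LV and 16.1 to 32.6 in Spt, Irx5 with 8.34 to 15.8 and 9.17 to 23.9. Meis2 was higher by 0.15 ± 0.04 (adjusted p = 0.0117) but lost its call with all 99 libraries (0.124) and with the series as a covariate (0.0564).

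Most Spt libraries and most LV and RV libraries belong to different series of library numbers. In the older groups all Spt libraries are in series 3 and all LV and RV libraries in series 2. Chamber and series cannot be told apart in those groups. The Spt comparisons were therefore repeated within series 2 and within series 3 for Sham-H, PAB-H and AOB-H only. Irx2 kept its call in both, at 1.57 ± 0.22 and 1.12 ± 0.14 against LV. Irx3 stood at 0.55 ± 0.11 and 0.51 ± 0.15 and Irx5 at 0.56 ± 0.12 and 0.48 ± 0.19, larger than in the whole set but not called (edgeR adjusted p = 0.0679 and 0.232 for Irx3, and up to 0.314 for Irx5). Meis2 stood at 0.10 ± 0.08 and -0.03 ± 0.09.

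Against RV, Irx2 was 10.1-fold higher in Spt (log2 fold change 3.33 ± 0.14, edgeR adjusted p = 2.58e-32). The lowest Spt library, at 9.06 CPM, lay above the highest RV library, at 2.93 CPM. Such a complete separation of the 33 Spt from the 29 RV libraries was seen in 0.0280% of the 10702 genes with a mean of at least 1 CPM. Irx1 was also among them, with 5.21 to 16.8 CPM in Spt and 0.397 to 2.63 in RV, and is named here after its values were seen.

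In the same comparison 7 of the 9 factors were called, 3 higher and 4 lower in Spt, with 26.8% of all genes called, 13.1% higher and 13.7% lower. Irx5 was higher by 0.61 ± 0.09 and Irx3 by 0.35 ± 0.09. Meis2 was lower in Spt by 0.39 ± 0.04 log2 units and in 29 of 29 animals, while Meis1 (-0.36 ± 0.05), Irx4 (-0.31 ± 0.08) and Hand2 (-0.15 ± 0.06, edgeR adjusted p = 0.0449) were also lower. The calls of Irx4 and Hand2 were lost with the series as a covariate (adjusted p = 0.133 and 0.192). That of Hand2 was also lost with all 99 libraries (0.0670) and with no filter on low counts (0.0612), and held in 14 of 33 fits that left out 1 animal (adjusted p = 0.0212 to 0.235). Within series 2 the calls of Meis1 (-0.22 ± 0.10, adjusted p = 0.321), Irx4 (-0.26 ± 0.14, 0.437) and Hand2 (0.473) were lost, and within series 3 those of Irx3 (0.32 ± 0.15, 0.176) and Hand2 (0.0907). Tbx5 and Tbx20 were not called in either Spt comparison.

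**Figure D3:**
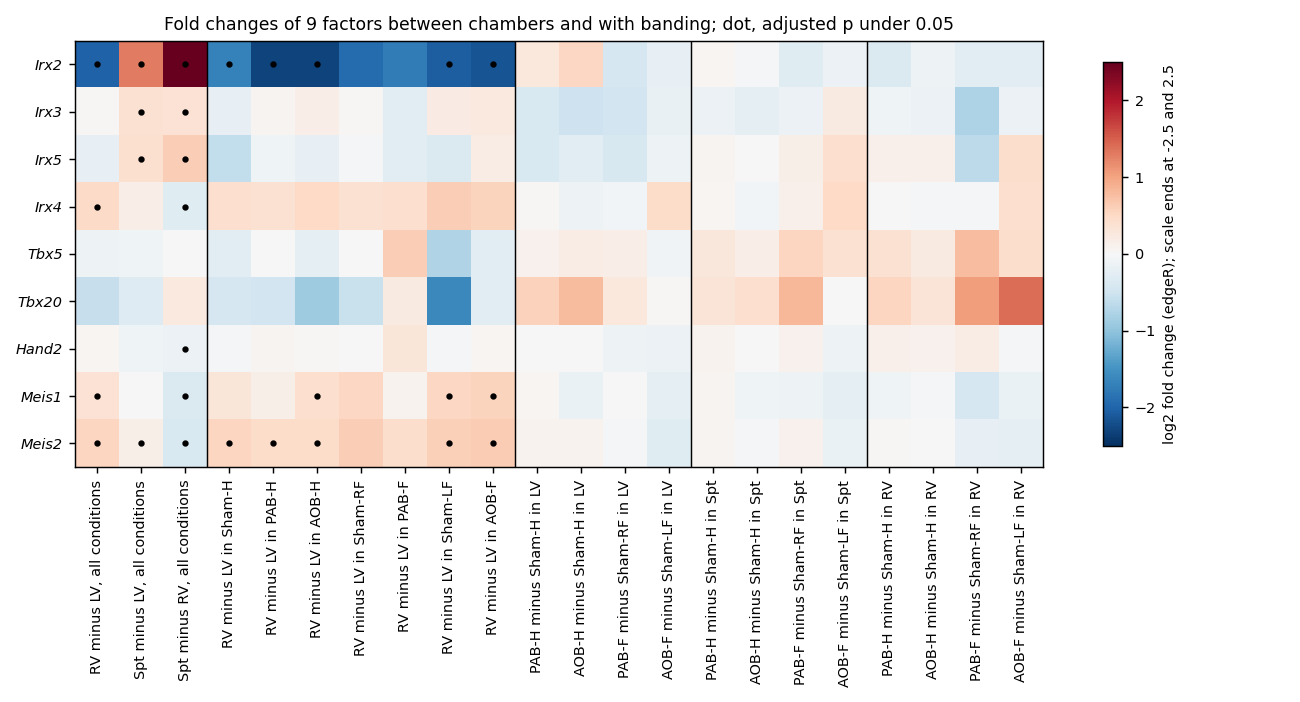
Log2 fold changes (colour, blue lower and red higher in the first group named, saturated for Irx2 in Spt minus RV at 3.33) of 9 factors (rows) in 3 chamber comparisons over all conditions, RV minus LV in each of 7 conditions and 12 banding comparisons (columns); dots mark an edgeR adjusted p under 0.05. Dots are seen among the chamber comparisons and none among the 12 banding comparisons.

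Genes with a pattern like that of the chamber-dependent factors were named by Pearson's r over the 21 group means of log2(CPM + 1) among 10711 genes. These points share animals, libraries and chambers, and r is given as a description. Among the nearest to Irx2 were its genomic neighbour Irx1 (r = 0.979) and Penk (0.918), which codes for proenkephalin. Mean CPM of Irx1 was 4.89 in LV, 9.22 in Spt and 1.15 in RV, and that of Penk 155, 370 and 72.8. The nearest to Meis1 were Mgst1, Slc16a11 and Nudt6 (0.968, 0.957 and 0.943), to Irx4 the N-cadherin gene Cdh2, Plcd3 and Ezr (0.912, 0.887 and 0.860) and to Meis2 the genes Taf9b, Cd164 and Sall1 (0.901, 0.889 and 0.888). Among the factors themselves the highest values were 0.864 between Meis1 and Meis2, 0.780 between the neighbours Irx3 and Irx5, 0.766 between Tbx5 and Tbx20 and 0.762 between Irx2 and Irx5. Irx2 and its neighbour Irx4 had r = -0.562.

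Other factors of cardiac patterning were described from a list of 40, of which 35 were tested. Between RV and LV, 6 were called higher and 11 lower in RV. Those with the largest change were Irx1 (-2.15 ± 0.15), the homeodomain-only factor Hopx (-0.63 ± 0.12), the Hippo effector Tead1 (-0.59 ± 0.24) and Tbx3 (-0.58 ± 0.11), a factor of the conduction system. Between Spt and LV 1 was higher, Irx1 at 0.91 ± 0.12, and 4 were lower, among them Shox2 (-1.33 ± 0.34) and Tbx1 (-0.65 ± 0.14). Between Spt and RV 6 were higher and 11 lower, with Irx1 (3.06 ± 0.15), Hopx (0.86 ± 0.12) and Shox2 (-1.48 ± 0.34) among those furthest from 0.

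A list of 15 genes studied as targets of these factors was described in the same way, and all 15 were tested. Between RV and LV, 8 were called higher and 1 lower in RV. The potassium channel subunit genes Kcnd3 and Kcnd2, which carry the transient outward current, were higher by 0.85 ± 0.09 and 0.40 ± 0.10, the myosin heavy chain gene Myh6 by 0.37 ± 0.11, and Nppb, the gene of B-type natriuretic peptide, was lower by -1.11 ± 0.21. In Spt Kcnd2 was lower than in LV (-0.55 ± 0.10) and in RV (-0.96 ± 0.10). Myh7 was higher in Spt than in LV and RV (0.42 ± 0.13 and 0.44 ± 0.13). In all, 3 targets were higher and 1 lower in Spt against LV, and 3 were higher and 3 lower against RV.

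Markers of other tissue moved between the same chambers. Of 6 atrial markers 3 were called higher in RV than in LV and none lower. These were Myl7 by 3.15, Sln by 2.83 and Myl4 by 2.38 log2 units. Median CPM in LV and RV was 11.1 and 17.7 for Myl7, 3.78 and 4.11 for Sln and 6.34 and 7.67 for Myl4. Myl7 in RV ranged from 1.03 to 1131 CPM. Myl7, Sln and Myl4 were not higher in RV in 13, 12 and 13 of 29 animals. The summed level of the list was 309 to 17503 CPM in LV, 206 to 14136 in Spt and 107 to 8588 in RV. Most of it was Nppa (median 830 CPM in LV and 249 in RV), and Bmp10 had a median of 0 in all 3 chambers. Of the 4 epicardial and mesothelial markers 3 were tested, and Upk1b and Msln were higher in RV by 1.95 and 1.93 while Wt1 was lower by -0.29. Their sum was 19.8 to 80.8 CPM in LV, 19.2 to 45.5 in Spt and 22.5 to 123 in RV.

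Of 5 endothelial markers 4 were lower in RV than in LV, with Cdh5 at -0.44 and Tie1 at -0.34, and all 5 were higher in Spt than in RV. Their sum was 644 to 1092 CPM in LV, 616 to 1297 in Spt and 524 to 984 in RV, and none was at 0. Fibroblast markers were lower in Spt than in LV in 5 of 5 and lower in RV than in LV in 4 of 5, with a sum of 1618 to 2603 CPM in LV, 1245 to 2368 in Spt and 1300 to 2082 in RV. Of 4 conduction system markers Hcn4 (0.87) and Etv1 (0.23) were higher in Spt than in LV and Kcne1 (0.65) and Etv1 (0.36) higher in RV than in LV, while in Spt against RV Hcn4 was higher (0.76) and Cntn2 lower (-0.51), with a sum of 28.3 to 76.6 CPM in LV, 37.9 to 88.5 in Spt and 36.0 to 102 in RV. Of 7 markers of ventricular muscle, the labelled tissue, none was at 0 and 5 were higher in RV than in LV. Smooth muscle and pericyte markers were 2 higher and 2 lower of 5 in RV against LV. In that comparison immune markers were 2 lower of 4, and no adipocyte marker of 3 was called. In Spt against RV all 3 adipocyte markers were called lower, Adipoq at -2.76, Cidec at -2.59 and Plin1 at -2.11. There Msln (-4.15) and Upk1b (-3.83) were also lower and Wt1 higher (0.45). The part of atrial, epicardial, endothelial, fibroblast, smooth muscle, immune, adipocyte and conduction cells in the differences of the factors was not tested.

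Tbx20 differed between series of library numbers more than between chambers. In LV it had 0.418 to 1.21 CPM in the 4 libraries of series 1, 1.38 to 19.0 (median 8.91) in the 21 of series 2 and 9.32 to 15.1 (median 12.1) in the 4 of series 3. In RV the medians were 0.301, 5.50 and 9.05 CPM. Series 1 did not overlap with the others in LV, and its highest library in RV, at 0.467 CPM, exceeded only the lowest of series 2, Sham-LF replicate 1, at 0.306. The share of all genes separated in this way by series was not determined, so the separation alone does not set Tbx20 apart. Among Spt libraries Sham-H replicate 5 of series 2 was the lowest at 0.399 CPM. Tbx5 followed at a smaller scale, with medians of 5.76, 9.18 and 11.5 CPM in LV and 5.05, 8.02 and 10.0 in RV. Irx3 ran the other way, with medians of 23.7, 16.9 and 14.3 CPM in LV and 23.9, 17.7 and 16.6 in RV. Series 1 holds only Sham-H, PAB-H and AOB-H animals, and LV and RV of all older animals are in series 2. Within series 1 to 3 Tbx20 was lower in RV than in LV by -0.73 ± 0.55, -0.64 ± 0.25 and -0.41 ± 0.10, called in series 2 and 3 (edgeR adjusted p = 0.0401 and 0.0180).

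**Figure D4:**
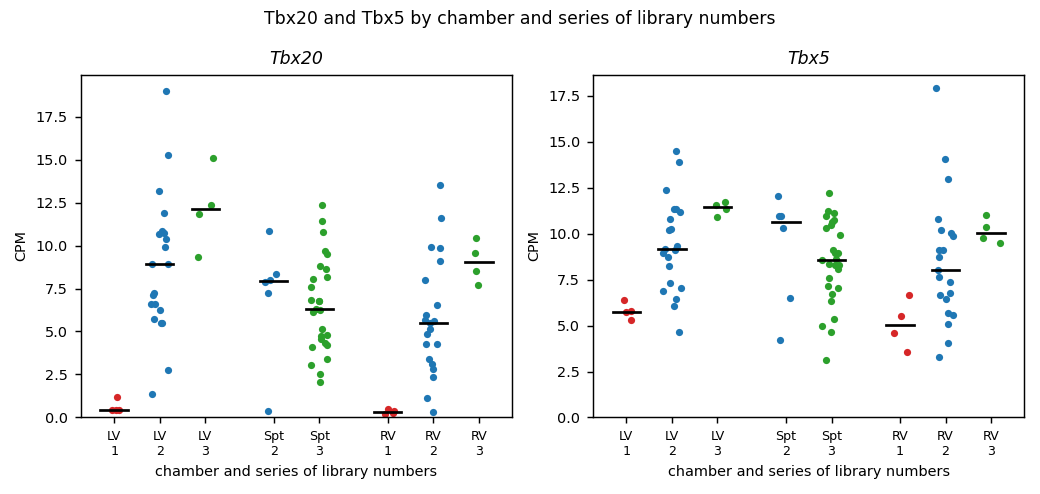
CPM (y axis) of Tbx20 and Tbx5 in each library by chamber and series of library numbers 1 to 3 (x axis); lines are medians. Tbx20 lies at or below 1.21 CPM in all 8 libraries of series 1 that were used.

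The response to banding was tested within each chamber against the sham group of the same age. None of the 9 factors was called in any of the 12 comparisons, which made 108 tests, and the smallest edgeR adjusted p was 0.254. Of the 108 tests 14 had an unadjusted p under 0.05. The share of all genes called was 0.591% for AOB-F in LV, 0.232% for AOB-F in Spt, 0.00855% for PAB-F in RV and 0% in the other 9 comparisons. They lay in 6 comparisons, 2 factors each for AOB-F in LV, Spt and RV, where 13.6%, 12.2% and 13.7% of all genes had such a p, 3 for PAB-F in RV (8.91% of all genes), 2 for PAB-H in LV (4.05%) and 3 for AOB-H in LV (6.26%). The other 6 comparisons held none, with 1.24% of all genes for PAB-F in LV, 4.44%, 15.9% and 4.14% for PAB-H, AOB-H and PAB-F in Spt, and 2.73% and 1.49% for PAB-H and AOB-H in RV. A p above the threshold in groups of 2 to 7 animals does not show that a factor was equal between groups.

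In AOB-F animals Irx4 was uneven. Their LV libraries held 38.6, 17.2, 22.9 and 35.4 CPM for replicates 1 to 4, against 20.2, 19.6 and 22.2 in Sham-LF. In RV they held 51.4, 26.9, 32.1 and 58.2, against 31.2, 32.5 and 29.8, and in Spt 38.9, 25.3, 53.2 and 20.4, against 18.3, 24.6 and 29.4. Replicates 1 and 4 were far above the sham libraries in LV and RV and replicates 2 and 3 lay near or below them, whereas in Spt replicates 1 and 3 were the high ones. The log2 fold changes were 0.46 ± 0.19, 0.43 ± 0.20 and 0.49 ± 0.22 in LV, RV and Spt (edgeR adjusted p = 0.254, 0.352 and 0.343). Without AOB-F replicate 2 the change in LV was called (0.64, adjusted p = 0.0409).

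Irx5 in RV was also split in AOB-F, at 18.6, 8.89, 9.77 and 19.5 CPM against 9.01, 10.4 and 11.8 in Sham-LF, with the same 2 replicates high. Meis2 was lower in AOB-F at 28.6, 23.0, 27.8 and 30.6 CPM in LV against 33.4, 30.9 and 37.1, and at 43.4, 37.0, 47.3 and 44.2 in RV against 48.6 to 52.5 in the 3 sham animals. The groups did not overlap in either ventricle, which held for 12.1% of all genes in LV and 10.1% in RV. Its log2 fold changes were -0.30 ± 0.12 and -0.24 ± 0.09 (edgeR adjusted p = 0.260 and 0.323). In Spt Meis1 lay at 13.7, 13.6, 14.7 and 13.7 CPM against 15.8, 16.5 and 15.6, without overlap, as did 9.88% of all genes, with -0.22 ± 0.11 (adjusted p = 0.394).

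**Figure D5:**
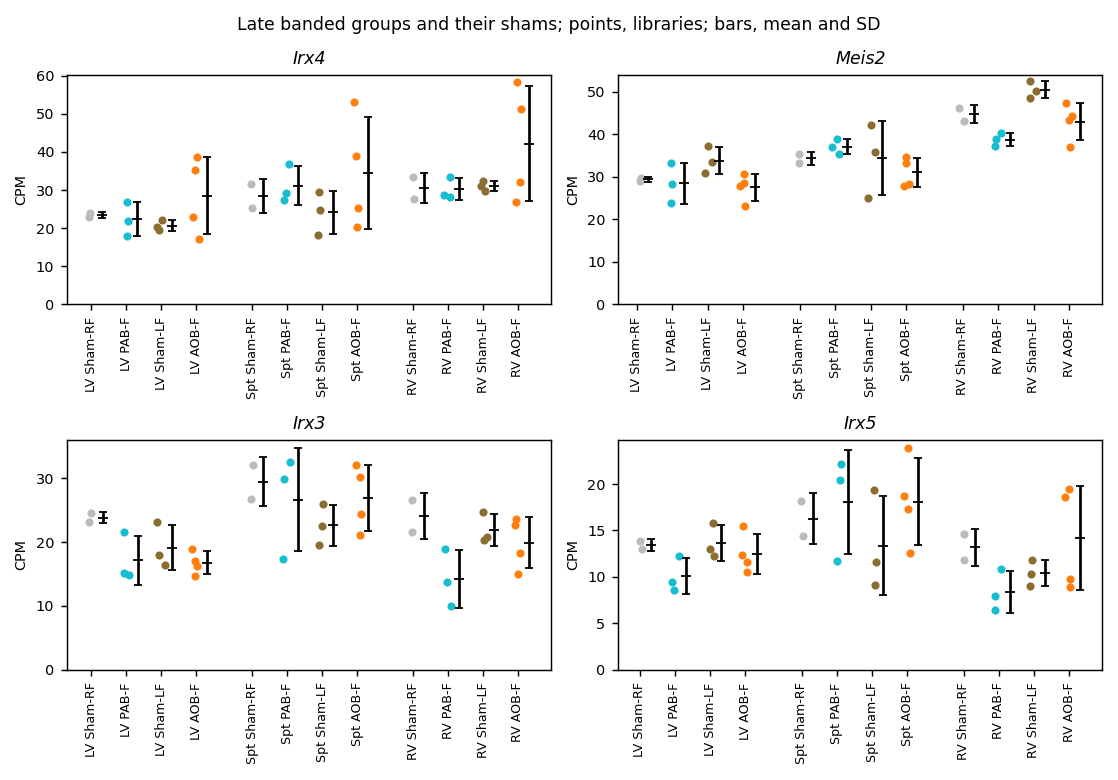
CPM (y axis) of Irx4, Meis2, Irx3 and Irx5 in the older groups, by chamber and condition (x axis); points are libraries, bars mean and SD. Irx4 in AOB-F spreads from 17.2 to 38.6 in LV, and Irx3 in RV lies below its sham libraries in all 3 PAB-F animals.

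For PAB-F no change of Irx3 or Irx5 passed the test, and their values in RV are given because the unadjusted p was under 0.05. In RV Irx3 held 18.9, 9.90 and 13.8 CPM against 21.5 and 26.6 in Sham-RF, and Irx5 held 10.8, 6.40 and 7.90 against 11.8 and 14.6. The log2 fold changes were -0.77 ± 0.30 and -0.66 ± 0.31 (edgeR adjusted p = 0.488 and 0.549), and Meis1 stood at -0.43 ± 0.18 (0.509). Together with Meis2, 4 factors in RV lay below both sham libraries, and 36.1% of all genes did not overlap between these groups. In LV the 3 factors Irx2, Irx3 and Irx5 lay below both sham libraries (18.4% of all genes without overlap), and in Spt Tbx5, Tbx20 and Hand2 lay above both (44.2%). The shares of the factors in RV and Spt were near or below this background. In Spt Tbx20 was called when the libraries of PAB-F and Sham-RF were fitted alone (0.82, edgeR adjusted p = 0.0327).

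In the compensated stage the changes of 3 iroquois genes in LV had an unadjusted p under 0.05. Irx3 and Irx5 stood at -0.39 ± 0.18 and -0.39 ± 0.13 in PAB-H and at -0.52 ± 0.17 and -0.28 ± 0.12 in AOB-H, and Irx2 at 0.51 ± 0.24 in AOB-H (edgeR adjusted p = 0.861 in PAB-H and 0.654 in AOB-H). These comparisons share the Sham-H animals, and their fit held no term for series. Irx3 in LV differed by series, with medians of 23.7, 16.9 and 14.3 CPM in series 1 to 3. Series 1 made up a larger part of the Sham-H libraries used in LV than of the PAB-H or AOB-H libraries. Series and banding are thus partly mixed. For AOB-H within series 3, where Sham-H replicate 7 was the only control library in LV, Irx3 and Irx5 turned to 0.25 and 0.04. Tbx20 stood at 0.57 there, and no test result is given for this fit. In Spt and RV no factor reached an unadjusted p under 0.05 at this stage.

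Whether banding or age changed the difference between chambers was tested by interaction terms in the fit of all 21 groups. None of 45 tests of the factors and none of the 11905 genes was called in any of the 5 interactions by edgeR, no factor had an unadjusted p under 0.05, and the smallest adjusted p of a factor was 0.886. At an unadjusted p under 0.05, 0.941% of all genes passed for PAB-H, 0.806% for AOB-H, 5.61% for PAB-F, 2.92% for AOB-F and 1.90% for sham age. The interaction of RV minus LV in Irx2 with PAB-H was -0.62 ± 0.41 and with AOB-H -0.63 ± 0.38. Between older and young shams no factor was called in any chamber (27 tests, smallest edgeR adjusted p = 0.393), with 0.00857% of all genes called in LV, 0.103% in Spt and 0.0769% in RV. No factor had an unadjusted p under 0.05 there, against 8.24%, 16.8% and 8.76% of all genes. Without Sham-LF replicate 3, Tbx5 in Spt was called as lower in older shams (-0.75, adjusted p = 0.0461). Libraries of older shams were all of series 2 in LV and RV and of series 3 in Spt, while those of Sham-H spanned several series. Age and series cannot be fully told apart in these comparisons.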

How the data were processed

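Poly(A) RNA of LV, Spt and RV was sequenced as single-end reads. Per the study's methods and the submitters' processing notes, reads were trimmed with Trim Galore 0.6.4 and aligned with STAR 2.6.1d to Rnor6.0 with UCSC annotation (nf-core/RNA-seq 1.5), and the authors counted reads per gene with featureCounts (Rsubread 2.2.6), not counting reads that overlap several genes. The deposited counts are whole numbers and not normalized. The deposited normalized signal is the counts divided by DESeq2 (1.28.1) size factors, and the deposited FPKM values are the authors' and were used for levels between genes. The use of strand in counting is not given in the sources used here, so reads of antisense neighbours may not be told apart. Deposited workbooks of the authors' own group comparisons (fold changes and p-values) were not used. CPM values were taken on the TMM-scaled library size.

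Counts were tested in R 4.3.3 with edgeR 4.0.16 (quasi-likelihood F test, TMM scaling, filterByExpr, Benjamini-Hochberg adjustment over all genes tested, threshold 0.05). Chamber and interaction comparisons came from a fit of 21 groups, banding and age from a fit per chamber. DESeq2 1.42.0 was used for alternatives. The animal block was a term for each animal in an edgeR fit, and limma 3.58.1 was loaded but gave no test. CPM, within-animal differences and figures came from Python (matplotlib 3.10.9). The scripts were tested on simulated data.

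Groups and replicates are from the sample titles. RV samples carry an LV tissue field and 1 RV library a column named after another sham group, and the titles were followed. Same-animal RV and LV deviations from group means correlated with a median r of 0.529 (24 of 29 animals over 0.1). Replicate numbers of PAB-H and Sham-H correlated over 0.1 in 5 of 5 pairs in LV and RV. Those of PAB-F and Sham-RF did so in 2 of 2 pairs in Spt, and elsewhere not every pair did. Libraries of a group and chamber are of different animals, so p-values of the banding and age comparisons measure the spread between animals. The main chamber and interaction fit held no term for the animal and treated LV, Spt and RV of an animal as independent. Its p-values do not measure the spread of the differences within animals. The 10 members and all gene lists were chosen with earlier results of these data known. Named genes are all members, for the 4 factors with the largest called RV to LV change the 3 genes of highest r, and from each other list up to 4 called genes of largest change, of which a few are left unreported here. The alternatives tried were the libraries left out, DESeq2, RLE scaling, no filter, library series, blocks, fits of fewer libraries and leaving out each animal.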

Additional observations from a re-analysis of the deposited data

Results flagged for a closer look

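Among 108 groups of a factor, condition and chamber with 4 to 10 libraries, 3 held a library whose gap to its nearest neighbour was large for the range of the group (Dixon's criterion at 95%), and chance gives about 1 in 20. Hand2 in RV of PAB-H replicate 7 was 39.5 CPM, against 28.4 to 31.1 in the other animals. Hand2 in LV of AOB-F replicate 4 was 25.0 CPM, against 29.2 to 29.9. Meis1 in Spt of AOB-F replicate 3 was 14.7 CPM, against 13.6 to 13.7.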

How the results depend on the processing

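Of the values computed for counts of factors called, 299 stayed within 1.5 times and 15 did not, and 320 and 8 when an animal was left out. A count of 0 that stayed at 0 is among those that stayed. The 12 banding, 3 age and 5 interaction comparisons all had 0 called in the main fits, so these totals say little about the called factors. Within series 2 of the library numbers 1 factor was called for Spt minus LV and 4 for Spt minus RV, and within series 3 1 for Spt minus LV, fewer libraries being tested. With all 99 libraries 0 were called for RV minus LV in Sham-H, PAB-H, AOB-H and Sham-LF, and 0 in PAB-H where PAB-H replicate 2 was kept and the other 3 animals left out. RV minus LV in Sham-RF gave 2 with DESeq2, with the series as a covariate and with the animal as a replicate block, and in PAB-F 1 with DESeq2 and with the block. PAB-F in Spt gave 1 with its groups alone. No count is given for AOB-H in LV within series 3, where Sham-H replicate 7 was the only control library. The replicate number as a block left the count at 0 in all 12 banding comparisons, and the block by animal changed no other count by over 1.5 times. Leaving out 1 animal gave 1 to 2 for RV minus LV in PAB-H, 0 to 2 in Sham-LF where the count with all used animals was 3, 0 to 1 for AOB-F in LV and 0 to 1 for older shams in Spt.

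Signs turned for values near 0, in few libraries or with the series as a covariate, and the cause was not tested. For RV minus LV these were Hand2 (-0.033 in series 1), Irx3 (-0.0020 in series 2) and Meis1 in PAB-F (-0.14 to 0.20 on leaving out 1 animal). For Spt minus LV, Meis1 was -0.025 with all 99 libraries, -0.011 with PAB-H replicate 2 kept, -0.0061 in series 3 and -0.024 to 0.028 on leaving out 1 animal, and Meis2 was -0.032 in series 3. For Spt minus RV, Tbx20 was -0.068 with the series as a covariate and -0.22 in series 3, against 0.15 to 0.38 on leaving out 1 animal. Tbx5 was -0.089 with the covariate, -0.069 and -0.15 in series 2 and 3 and -0.044 to 0.11 on leaving out 1 animal. For AOB-H in LV, Irx3 was 0.25 and Irx5 0.043 in series 3, against Sham-H replicate 7 alone. Depth limited Hand1, which could not be tested, and Irx2 in RV and Tbx20 in series 1 rest on few reads.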
